A study of Homo sapiens with 21 samples.

Results

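Cytosolic ribosomal protein genes are described here across RNA-seq libraries of 2 human cancer cell lines. This gene set was chosen with earlier results of these data known. Its members were taken by name from the human annotation, and their measured values were not used in that step. The rule took protein-coding genes named RPL or RPS followed by a number, with RPSA, RPLP0, RPLP1 and RPLP2. It left out S6 kinases, paralogs with an added L in the name, readthrough genes and pseudogenes. Of the 79 genes that fit this rule, 76 were in each of the 4 deposited tables, among 20970 genes listed in any of them. They comprised 46 genes of the large subunit and 30 of the small subunit, spread over 21 chromosomes. The other 3 genes that fit the rule were listed in no table, and 22 other protein-coding genes with RPL or RPS names were left out by the rule. All 76 genes passed the filter on low values in each of the 3 tables that were tested.

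The cytosolic ribosome is built from ribosomal RNA and one copy of most of its proteins, so the genes for these proteins are expressed at high levels in dividing cells and usually move as a block. Most of their mRNAs start with a 5′ terminal oligopyrimidine stretch (5′ TOP), a C at the first base followed by further C and T bases, through which mTORC1 and the protein LARP1 control their translation and stability. Some of the proteins have further roles, among them RPL5 and RPL11, which bind MDM2 when ribosome assembly is disturbed, and RPS6, the substrate of S6 kinase.

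The lines were FADU, from a head and neck cancer, and BFTC909, from a cancer of the renal pelvis. The groups compared in each line were control siRNA (Scr-si) at 18% O2, called normoxia, Scr-si at 1% O2 for 18 h, called hypoxia, and an siRNA against METTL4 (METTL4-si), a methyltransferase of adenine in DNA, at 1% O2 for 18 h. FADU cells were also transfected with a control vector or with plasmids for METTL4 (METTL4-OE) or for the lncRNA RP11-390F4.3 (RP11-390F4.3-OE), and all 3 of these groups, stable transfectants, were kept without hypoxia. Each of these 9 groups had 2 libraries. The last set held 1 library of CRISPR control FADU cells and 1 library from each of 2 clones grown from single cells in which prime editing had changed the catalytic DPPW motif of METTL4 to APAW, all in hypoxia. The columns of the RP11-390F4.3-OE cells carry another name in their table and were assigned by elimination.

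The 21 libraries held from 17.8 M to 25.4 M reads on genes, so that even the lowest ribosomal protein gene of a library rested on 42 reads or more. METTL4 itself was 4.24-fold higher in METTL4-OE than in control vector cells (adjusted p = 4.32e-11, limma). In hypoxic FADU cells METTL4 had 26.6 and 25.3 with Scr-si, whereas the libraries labelled METTL4-si had 24.2 and 27.1, so the target RNA was not lower in FADU (log2 fold change -0.02). METTL4-si therefore stands for the libraries so labelled throughout. In BFTC909 cells the METTL4 values were 19.0 and 15.6 against 14.4 and 12.2 (log2 fold change -0.36, adjusted p = 0.0717). The level of RP11-390F4.3 was not checked, since no gene of that name was found in the annotation used here. FADU libraries held all 6 squamous markers and also 5 or 6 of 8 urothelial markers at a value of 1 or more, the latter with sums of 619 to 3318. BFTC909 libraries held 0 or 1 squamous markers and 3 or 4 urothelial ones, fewer than FADU although the line is from the renal pelvis, with KRT8, KRT18 and PPARG as the 3 that were tested. They also held 4 or 5 of 6 stromal markers, with sums of 1020 to 4652. The marker lists therefore did not set BFTC909 apart as urothelial. In the FADU knockdown table, the summed value of the 3 listed breast luminal markers was 45.95 and 3.08 in normoxia, 7.46 and 7.02 in hypoxia with Scr-si, and 224 and 2.76 under METTL4-si. In BFTC909 cells the urothelial list summed to 52.3 and 1243 under METTL4-si, against 31.7 and 31.2 with Scr-si in hypoxia. Values for ribosomal protein genes without these 3 libraries stand beside the results.

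The start of the mRNA is the feature by which ribosomal protein genes are best known, and it was read from the RefSeq promoter sequences of GRCh38.p14, which covered 62 of the 76 genes. At the annotated start site, 42 of the 62 genes (67.7%) had a C followed by 4 bases that were each C or T, against 1104 of 27305 promoters (4.04%) in the whole table and 7 of 47 (14.9%) genes for ribosome assembly factors. The run of pyrimidines through the start site had a median length of 10.5 bases. The letters TATAA between 35 and 20 bases before the start were found in 6 of the 62 genes (9.68%) and in 3.87% of all promoters, read on the gene's strand. The 6 sequences shown run from 30 bases before the start to base 20 of the mRNA, 5′ to 3′ on the strand of the gene, with the pyrimidine run through the start site in capitals. RPSA (chr3:39406690-39406739, plus strand), RPS12 (chr6:132814539-132814588, plus strand), RPLP0 (chr12:120201092-120201141, minus strand) and RPS6 (chr9:19380217-19380266, minus strand) are shown as genes with this start whose values are followed through the results. RPL13 (chr16:89560627-89560676, plus strand) and RPS26 (chr12:56041888-56041937, plus strand) are shown because their annotated starts lacked it.
RPSA: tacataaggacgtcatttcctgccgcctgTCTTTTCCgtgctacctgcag
RPS12: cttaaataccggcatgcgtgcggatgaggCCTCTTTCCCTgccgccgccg
RPLP0: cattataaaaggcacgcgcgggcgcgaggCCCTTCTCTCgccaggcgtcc
RPS6: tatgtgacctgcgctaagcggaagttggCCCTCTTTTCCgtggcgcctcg
RPL13: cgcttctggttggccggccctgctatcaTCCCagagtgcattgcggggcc
RPS26: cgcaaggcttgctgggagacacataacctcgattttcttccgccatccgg

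The summed value of the 76 genes, as a share of all values of a library, moved with the conditions. It was 2.98% and 3.01% in FADU normoxia, 2.91% and 3.02% in hypoxia, and 2.03% and 1.71% under METTL4-si. BFTC909 cells had 3.28% and 3.27% in normoxia, 2.58% and 2.67% in hypoxia, and 2.20% and 2.24% under METTL4-si. FADU normoxia and hypoxia overlapped, BFTC909 hypoxia lay below normoxia, and the share was lowest under METTL4-si in both lines. Control vector cells had 2.90% and 3.03%, METTL4-OE cells 3.40% and 3.46%, and RP11-390F4.3-OE cells 3.68% and 3.62%, with no overlap between these groups. The large subunit contributed between 59.3% and 62.9% of the summed value in every library. In bulk RNA a change in this share cannot be assigned to fewer mRNAs per cell or to a change in the rest of the transcriptome, since the values are relative within a library.

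**Figure D1:**
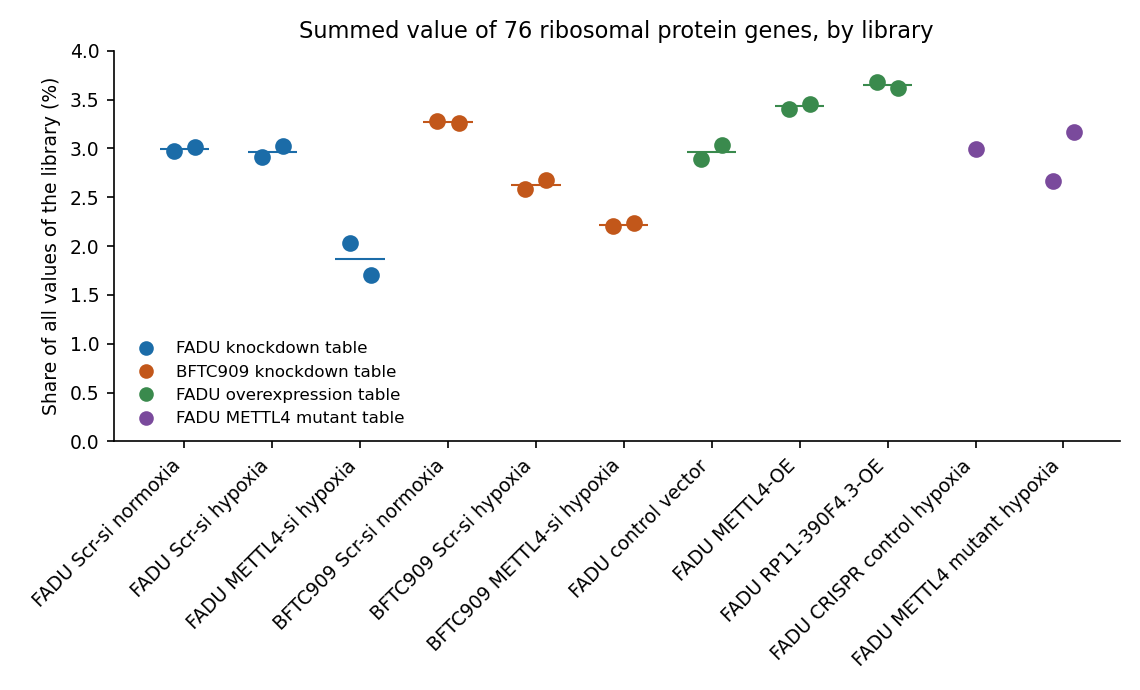
Summed TMM-normalized CPM of the 76 ribosomal protein genes as a percentage of all values of a library (vertical axis) in each of the 21 libraries, grouped by condition (horizontal axis); each point is 1 library and a bar marks the mean of each group of 2 libraries. The FADU libraries labelled METTL4-si were lowest, at 2.03% and 1.71%, and RP11-390F4.3-OE libraries highest, at 3.68% and 3.62%; the 2 mutant clones, at 2.67% and 3.17%, lay on either side of their control at 2.99%.

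Levels of single genes differed widely despite the equal numbers of their proteins in the ribosome. Per kilobase of the canonical transcript in FADU normoxia, the median value was 374, with the 76 genes spread from a mean of 10.1 to a mean of 1746. RPS2, a small-subunit protein near the mRNA entry site, was highest at 1851 and 1641 per kilobase, and RPL17, which lines the exit tunnel, was lowest. RPS2 lay above the next gene, RPL7A (1223 and 1375), in both libraries. RPS20 (1205 and 1245) overlapped with RPL7A and with RPLP0 (1215 and 1222), while RPL7A lay just above RPLP0 in both libraries. In BFTC909 normoxia RPS20 was highest (1604 and 1586) and RPL17 again lowest (6.63 and 7.17). RPL17, RPL14 and RPS10 were the 3 lowest in FADU, and RPL14 has an annotated canonical transcript of 7136 bases. Genes with shared exons also stood low. RPL17 shares 96.9% of its canonical transcript with the readthrough gene RPL17-C18orf32, RPS10 shares 84.0% with RPS10-NUDT3, RPL26 shares 65.3% with a gene model that has no symbol, and RPL36A shares 43.8% with RPL36A-HNRNPH2. No other member shared more than 40%. Counting with htseq-count in its usual mode gives reads on more than one gene to none of them, the mode used here was not given, and the values of these 4 genes are therefore uncertain. Every member also has pseudogenes named after it, with a median of 14 and up to 133 for RPL21, whose similar sequences could take up or lose reads.

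Hypoxia in FADU cells left most ribosomal protein genes close to their level in normoxia. Following the study, a gene is said to rise or fall where it changed by 1.3-fold and its unadjusted p by limma was below 0.05. By this threshold 1 of the 76 genes rose and 8 fell, whereas 12.4% of all 16324 tested genes rose and 12.5% fell. The median log2 fold change of the 76 genes was -0.07, beside -0.03 for all tested genes. With an adjusted p under 0.05 and no fold threshold, 12 genes were lower, against 12.7% of all genes, and both hypoxia libraries lay below both normoxia libraries for 36 genes (39.5% of all genes). The shares of lower genes are near the background. RPSA, a small-subunit protein also known as the laminin receptor, was the one gene that rose. It had values of 809 and 873 in normoxia and 1065 and 1131 in hypoxia (1.31-fold, adjusted p = 0.0148), with no overlap between the groups, although without normoxia replicate 1 or without hypoxia replicate 2 it no longer passed. RPS26, which lies at the mRNA exit, fell from 154 and 141 to 89.1 and 109 (log2 fold change -0.58, adjusted p = 0.0206). RPS28 fell (log2 fold change -0.49, adjusted p = 0.00816), and RPS15 and RPS19 passed with unadjusted p-values only (adjusted p = 0.0814 and 0.0916). RPS19, the gene most often mutated in Diamond-Blackfan anaemia, had 362 and 394 in normoxia and 275 and 298 in hypoxia. The other 4 genes that fell were those with shared exons, RPL17 (log2 fold change -0.84), RPL36A (-0.72), RPS10 (-0.70) and RPL26 (-0.56), and without them 4 of 72 genes fell. In the same comparison 4 squamous markers rose and 1 fell, 4 of 6 urothelial markers fell, and so did both endothelial markers tested, and their part in the result was not tested. Leaving out normoxia replicate 1 and METTL4-si replicate 1, in which breast luminal markers were raised, gave 9 genes lower and 0 higher.

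Among the members with a fixed role, those of the stalk, which recruits elongation factors to the ribosome, had log2 fold changes of 0.04 for RPLP0, -0.12 for RPLP1 and -0.25 for RPLP2 in FADU hypoxia. RPL5 (0.01), RPL11 (0.02) and RPL23 (-0.04), all known to bind MDM2, had overlapping libraries in both conditions. RPS6, RPS3, RPS27A, RPS4X, RPL10, RPL22 and RPL38 had log2 fold changes between -0.07 and 0.03, and the lowest adjusted p among them was 0.671. None of these genes passed the test.

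The libraries labelled METTL4-si differed from Scr-si in hypoxia far more, with lower values for nearly every ribosomal protein gene of FADU cells. Of the 76 genes, 65 fell and 2 rose, whereas 16.8% of all tested genes fell and 15.2% rose. Their median log2 fold change was -0.67, a 1.59-fold lower value, beside 0.02 for all genes. By adjusted p with no fold threshold 64 genes were lower (19.5% of all genes), and in 70 genes both libraries labelled METTL4-si lay below both Scr-si libraries (34.4% of all genes). The 72 genes without large exon overlap were all lower, from -0.17 for RPS15A to -1.41 for RPSA, and the large and the small subunit had medians of -0.68 and -0.65. The 2 genes that rose were RPL17, from 3.01 in both libraries to 4.67 and 5.43, and RPL36A, from 15.5 and 16.3 to 23.8 and 23.6, which share exons with other genes.

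RPSA fell most. Its values were 1065 and 1131 with Scr-si and 424 and 402 under METTL4-si, a 2.65-fold lower level (log2 fold change -1.41 ± 0.08 (SE), adjusted p = 0.00015, limma). RPS12, a small-subunit protein, followed with 415 and 442 against 175 and 159 (2.56-fold lower, adjusted p = 0.000252). RPLP0, the base of the stalk and often used as a reference gene in PCR, went from 1336 and 1434 to 674 and 569 (2.23-fold lower, adjusted p = 0.000558). In each of these genes the groups were well apart. The other stalk proteins were lower as well, RPLP1 by 1.69-fold and RPLP2 by 1.74-fold. RPL5 fell from 729 and 737 to 409 and 457, and RPL11 from 295 and 324 to 210 and 169. RPL23 had a log2 fold change of -0.69 and RPL26, the last of the MDM2-binding group and one with shared exons, of -0.09. RPS6 fell from 415 and 455 to 290 and 227 (log2 fold change -0.76, adjusted p = 0.00493). RPS27A, made as a fusion with ubiquitin, was 1.84-fold lower, RPL10 1.86-fold, RPL38 1.67-fold, RPS4X 1.58-fold and RPL22 1.48-fold. RPS19 moved least among the fixed-role genes that passed (log2 fold change -0.48, adjusted p = 0.0431), and RPS3 passed with a log2 fold change of -0.62 and an adjusted p of 0.0756. Genes that did not pass included RPL13, whose libraries labelled METTL4-si lay far apart at 330 and 157 against 320 and 348.

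Markers of cell type moved in the same comparison. Of the 6 squamous markers 4 fell and 0 rose (median log2 fold change -0.70), and their summed value went from 3112 and 3417 to 1918 and 2138. Both endothelial markers tested rose (median log2 fold change 0.58), as did the monocyte marker CD14, from 2.47 and 2.19 to 4.39 and 6.10, and 2 of 6 urothelial markers. Their part in the result was not tested. Replicate 1 of the FADU libraries labelled METTL4-si had higher values than replicate 2 for 69 of the 76 genes, with a median log2 difference of 0.26, and it was also the library with breast luminal markers at 224. Without replicate 1, 69 genes were lower and the median log2 fold change was -0.84. Without replicate 2, 48 genes were lower and the median was -0.51. The part of the marker RNA in these differences was not tested. Without both libraries that held raised markers, 69 genes were lower and 3 higher.

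**Figure D2:**
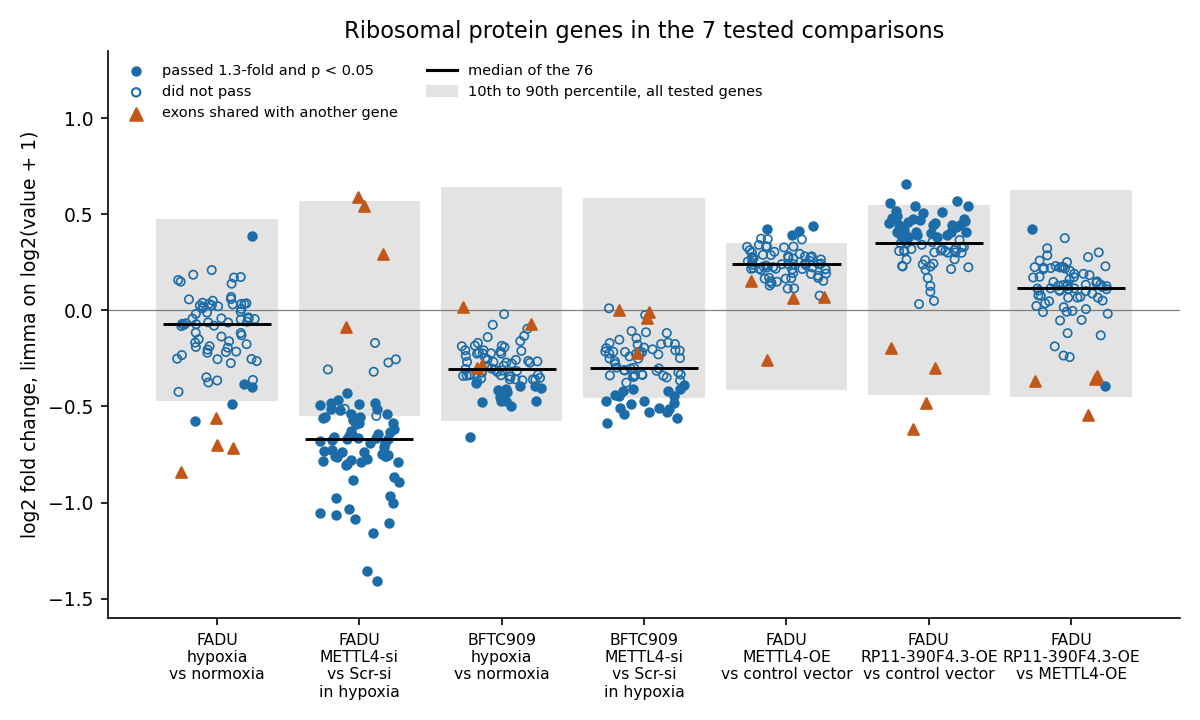
Log2 fold change of each of the 76 ribosomal protein genes (vertical axis, limma on log2(value + 1)) in the 7 tested comparisons (horizontal axis); filled circles passed the threshold, open circles did not, triangles mark the 4 genes that share exons with another gene whether or not they passed, the line is the median of the 76 genes and the grey band spans the 10th to 90th percentile of all tested genes. Medians run from -0.67 in FADU METTL4-si to 0.35 in RP11-390F4.3-OE, and the triangles lie at the ends of the range in FADU hypoxia and FADU METTL4-si.

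In BFTC909 cells hypoxia went with lower values of nearly all the genes, by a small amount. Past the threshold 15 of 76 genes were lower and 0 higher, near the 19.2% of all 14869 tested genes that were lower, while 19.5% of all genes were higher. The median log2 fold change of the 76 genes was -0.30, beside -0.02 for all genes, and 75 of 76 were below 0. By adjusted p with no fold threshold 56 genes were lower (24.5% of all genes), and for 74 genes both hypoxia libraries lay below both normoxia libraries (43.2% of all genes). RPS26 fell most, as it had fallen in FADU, from 164 and 163 to 103 in both libraries (1.58-fold lower, adjusted p = 0.000759). RPL24, which forms a bridge between the subunits, fell from 276 and 279 to 195 and 197 (adjusted p = 0.00082), and RPL38 from 186 and 180 to 130 and 132 (adjusted p = 0.00291). RPL23, with 470 and 451 in normoxia and 340 and 345 in hypoxia, was the only other gene with a fixed role that passed. RPL17 (log2 fold change 0.02), RPL13A (-0.02) and RPL36A (-0.07) lay at the upper end. Stalk genes had log2 fold changes of -0.17 for RPLP0, -0.16 for RPLP1 and -0.32 for RPLP2, and RPS6 had 1057 and 1097 in normoxia and 1009 and 1006 in hypoxia (adjusted p = 0.362). Among the genes below the fold threshold but with an adjusted p under 0.05 were RPSA (log2 fold change -0.30), RPS4X (-0.34), RPS19 (-0.31) and RPL11 (-0.23). All 5 stromal markers that were tested rose in the same comparison (median log2 fold change 2.04), and their part in the result was not tested. The count was sensitive to scaling, with 7 genes lower when libraries were centred on their median, and to hypoxia replicate 2, without which 25 were lower.

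In BFTC909 cells too, ribosomal protein genes were lower under METTL4-si than with Scr-si. Here 20 genes fell and 0 rose, whereas 12.9% of all genes fell and 15.7% rose. The median log2 fold change was -0.30, beside 0.01 for all genes, and 75 genes were below 0. With an adjusted p under 0.05 and no fold threshold 47 genes were lower (16.6% of all genes), and for 64 genes both libraries lay below both Scr-si libraries (32% of all genes). RPSA was again the lowest, with 671 and 701 under Scr-si and 486 and 428 under METTL4-si (log2 fold change -0.59 ± 0.08 (SE), adjusted p = 0.00165). RPL21 (316 and 318 against 241 and 191) and RPS26 (103 in both against 76.3 and 65.5) followed, with adjusted p-values of 0.00639 and 0.0029. RPLP0 fell from 876 and 906 to 670 in both, RPLP2 from 229 and 254 to 176 and 171, and RPS6 from 1009 and 1006 to 759 and 663, with no overlap between the groups in any of the 3. RPS27A (1.43-fold lower), RPL10 (1.36-fold) and RPS4X (1.33-fold) also passed. RPL11 (log2 fold change -0.35), RPL5 (-0.34), RPL23 (-0.30) and RPL22 (-0.27) had adjusted p-values under 0.05 but not the fold. At the upper end stood RPL13, with 345 and 382 against 319 and 419, and 2 of the genes with shared exons, RPL36A and RPS10, with log2 fold changes that round to 0.00 and -0.01. Of the 5 stromal markers tested, 4 fell and 0 rose in the same comparison (median log2 fold change -0.66), with sums of 4447 and 4652 against 2481 and 2680. CD14 and the endothelial marker VWF rose (log2 fold changes 0.55 and 0.65), as did 2 of 3 urothelial markers, and the part of these markers in the result was not tested. Without replicate 2, in which KRT8 and KRT18 were high, 25 ribosomal protein genes fell. The count depended on scaling, at 40 with libraries centred on their median and 11 with libraries scaled to an equal sum.

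Set side by side, 72 genes were below 0 in the METTL4-si comparison of both lines, and all 20 genes that passed in BFTC909 had also passed in FADU, as 65 of the 76 had. These 20 genes include RPSA, RPS12, RPLP0, RPLP2, RPS6, RPS27A, RPS4X and RPL10. Across the 72 genes without large exon overlap, the log2 fold changes of both lines had a Pearson correlation of 0.516 and a Spearman correlation of 0.484, as a description only, since genes are not independent. The points share no library between the lines, although each compares against hypoxic Scr-si cells made in the same way. For hypoxia the same correlations were 0.134 and 0.0636, and 2 genes, RPS15 and RPS26, passed in both lines. The tables of both lines were normalized separately, so the sizes of the effects were not tested against each other.

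**Figure D3:**
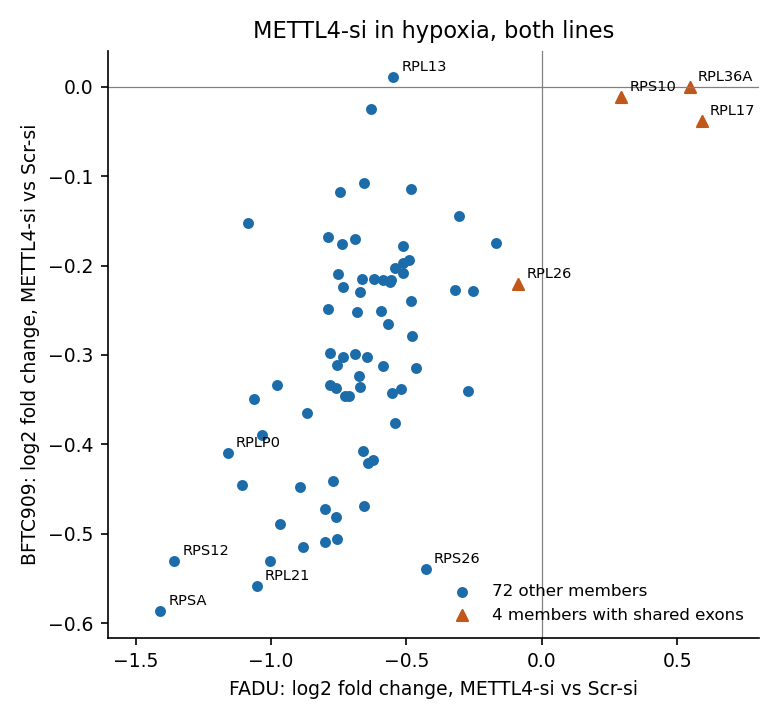
Log2 fold change of the ribosomal protein genes in libraries labelled METTL4-si against Scr-si, in FADU (horizontal axis) and BFTC909 (vertical axis), with 1 point per gene; triangles mark the 4 genes with shared exons. In all, 72 genes lie below 0 on both axes and RPSA lies at the lower left, at -1.41 and -0.59.

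In METTL4-OE cells most ribosomal protein genes had slightly higher values. Past the threshold 4 of 76 genes were higher and 0 lower, whereas 8.3% of all 15644 tested genes were higher and 11.1% lower, so this count lies under the background. The median log2 fold change was nevertheless 0.24, a 1.18-fold higher value, beside 0.01 for all genes, and 75 genes were above 0. By adjusted p with no fold threshold 68 genes were higher and 1 lower, against 20.9% of all genes higher, and for 70 genes both METTL4-OE libraries lay above both control vector libraries (36.1% of all genes). RPL12, at the base of the stalk, rose most, from 362 and 377 to 501 in both libraries (1.36-fold, adjusted p = 2.56e-06). RPS26 rose from 111 and 131 to 162 in both (adjusted p = 0.000121), RPL36 from 121 and 113 to 162 and 149 (adjusted p = 3.13e-05) and RPL28 from 260 and 224 to 331 and 303 (adjusted p = 0.000231). Below the fold threshold, RPL11 and RPL23 were 1.29-fold higher, RPSA 1.25-fold, RPS4X 1.23-fold, RPLP0 and RPL10 1.21-fold, RPS27A 1.19-fold, and RPL5, RPS3 and RPL38 between 1.18-fold and 1.19-fold, all with adjusted p-values under 0.05. RPS6 had 444 and 439 in control cells and 485 and 494 in METTL4-OE (adjusted p = 0.0366). At the low end were RPL36A (log2 fold change -0.26), RPS10 (0.06) and RPL26 (0.07), all genes with shared exons. Among the markers, 1 squamous one rose and 2 fell, 3 of 6 urothelial ones fell, and COL1A1 and both endothelial markers fell, a part that was not tested.

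In RP11-390F4.3-OE cells ribosomal protein genes were higher as well. Against control vector 36 genes rose and 2 fell, whereas 16.8% of all genes rose and 12.8% fell. The median log2 fold change was 0.35, or 1.28-fold, beside 0.01 for all genes, with 72 genes above 0. By adjusted p with no fold threshold 69 genes were higher (28% of all genes), and for 70 genes both libraries lay above both control vector libraries (39.1% of all genes). RPL13 rose most, from 293 and 312 to 465 and 488 (1.57-fold, adjusted p = 1.14e-07). It was followed by RPL8, from 477 and 486 to 691 and 735, and RPS2, from 1455 and 1513 to 2118 and 2251. RPL3, a protein near the peptidyl transferase centre, rose from 803 and 838 to 1197 and 1198, and RPSA from 806 and 900 to 1246 and 1233 (1.46-fold, adjusted p = 2.03e-06). No library of the groups overlapped in any of these 5 genes. The fixed-role genes RPLP1, RPLP2, RPS3, RPS19, RPS27A, RPL10, RPL38 and RPS4X also passed, with log2 fold changes from 0.38 to 0.47, while RPLP0 (1.27-fold), RPS6 (1.28-fold), RPL11 (1.29-fold), RPL22 (1.18-fold), RPL5 (1.17-fold) and RPL23 (1.09-fold) stayed below the threshold. The 2 genes that fell were RPL36A, from 21.8 and 20.2 to 14.7 and 12.04, and RPS10, from 14.6 and 10.98 to 9.91 and 7.80, and RPL26 and RPL17 were next lowest. Of the 72 genes without large exon overlap, RPS26 changed least (log2 fold change 0.03), with 111 and 131 in control cells and 124 and 123 in RP11-390F4.3-OE. RPS15A was nearly as flat, with 156 and 161 in control cells and 164 in both RP11-390F4.3-OE libraries. Here 3 squamous markers rose and 1 fell, 2 urothelial ones rose and 2 fell, both endothelial markers fell and CD14 rose, and their part was not tested. Other scalings gave fewer genes, with 15 higher when libraries were centred on their median and 16 when they were scaled to an equal sum.

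Compared directly, RP11-390F4.3-OE and METTL4-OE cells differed in 3 genes past the threshold, 1 higher and 2 lower in RP11-390F4.3-OE, whereas 18.8% of all genes were higher and 13.6% lower. The median log2 fold change was 0.11, beside 0.00 for all genes, and by adjusted p with no fold threshold 32 genes were higher (28.3% of all genes) and 8 lower. For 53 genes both RP11-390F4.3-OE libraries lay above both METTL4-OE libraries (39.6% of all genes). RPL13 was 1.34-fold higher in RP11-390F4.3-OE (adjusted p = 6.68e-06), and RPL8 and RPS19 stayed below the threshold with log2 fold changes of 0.38 and 0.32. RPS26, with 162 in both METTL4-OE libraries against 124 and 123, was lower (adjusted p = 0.000135), and so was RPS10 (adjusted p = 0.0036). RPL23 lay on the same side, with 484 and 469 against 400 and 404 (log2 fold change -0.24, adjusted p = 0.000357), RPL26 had a log2 fold change of -0.37 (adjusted p = 0.0581), and RPL5 and RPL11 of -0.01 each. With libraries centred on their median 0 genes were higher and 5 lower.

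**Figure D4:**
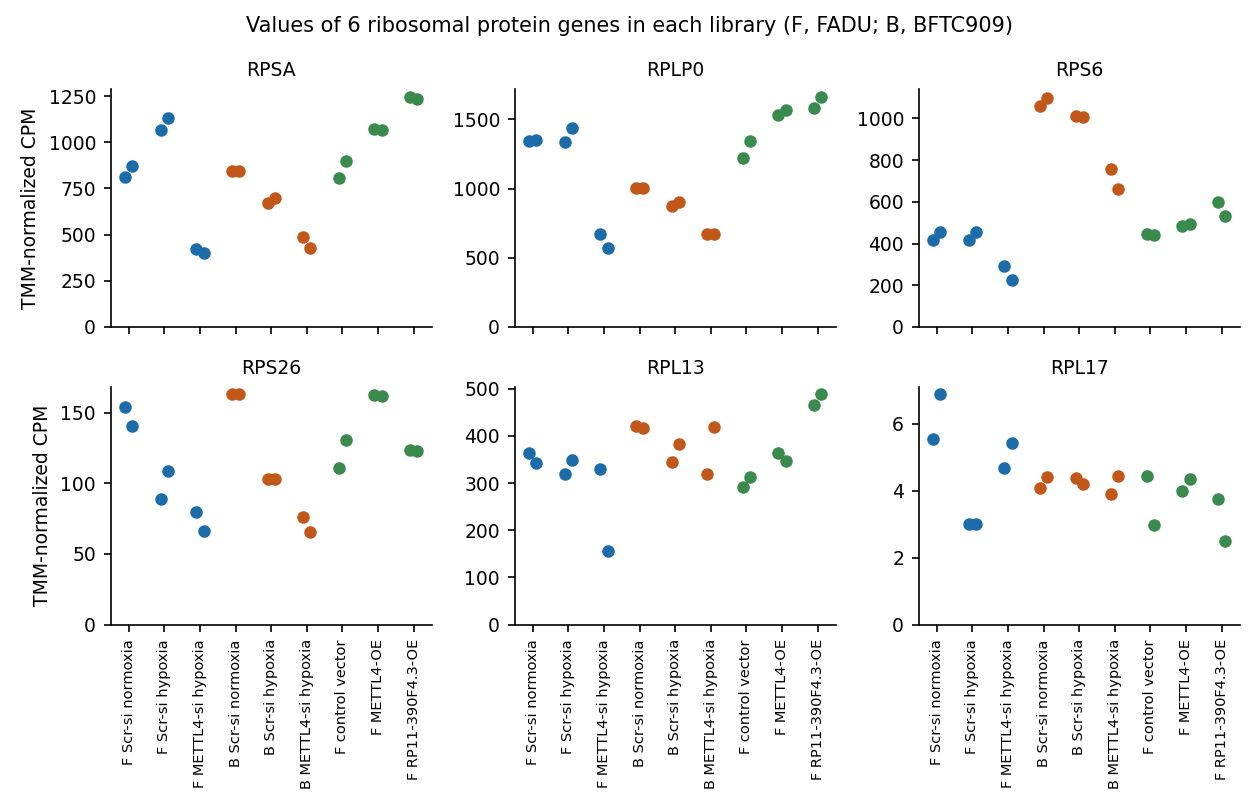
TMM-normalized CPM (vertical axes, starting at 0) of RPSA, RPLP0, RPS6, RPS26, RPL13 and RPL17 in every library of the knockdown and overexpression experiments, by group (horizontal axis); each point is 1 library, with FADU knockdown in blue, BFTC909 knockdown in orange and FADU overexpression in green. RPSA, RPLP0 and RPS6 are lower in the libraries labelled METTL4-si of both lines, RPS26 is lower in hypoxia of both lines, and RPL13 spreads from 157 to 330 in FADU METTL4-si.

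In FADU cells with mutated METTL4 under hypoxia, ribosomal protein genes were mostly lower in clone 1 and spread on both sides of the control in clone 2. With 1 control library there is no replicate check, and the values describe these libraries. The median log2 ratio of the 76 genes to the CRISPR control was -0.30 in clone 1 and -0.09 in clone 2, beside 0.00 and -0.01 over all 15719 genes listed. In clone 1, 25 genes were lower by 1.3-fold or more and 0 higher (16.9% and 14.4% of all genes), and in clone 2, 7 were lower and 2 higher (17.5% and 14.1% of all genes). Of the 76 genes, 51 were below the control in both clones and 3 above it in both, and 40.7% of all genes were below it in both. For RPLP1 the control stood at 274, clone 1 at 144 and clone 2 at 239. In the same order RPL24 stood at 172, 114 and 128, RPL37A at 249, 167 and 183, and RPLP0 at 856, 530 and 764. These genes were lower in both clones. RPSA (615, 549 and 714), RPS26 (41.04, 39.7 and 47.9) and RPS2 (1097, 1080 and 1447) were lower in clone 1 and higher in clone 2, and RPL3 (564, 599 and 910) was higher in both. RPS6 had 280, 221 and 262, RPL5 430, 403 and 397, and RPL11 195, 150 and 138. The clones share their control, and they differed between themselves, with log2 ratios for RPL3 of 0.09 and 0.69. With all libraries scaled to an equal sum the medians were -0.18 in clone 1 and 0.01 in clone 2, so the direction in clone 2 depended on the scaling.

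Sequence and level were then set beside the changes within the block. The 42 genes with a C and 4 pyrimidines at the annotated start had a median log2 fold change of -0.66 in FADU METTL4-si and the 20 genes with another start one of -0.69, and in RP11-390F4.3-OE the medians were 0.35 and 0.37. In BFTC909 METTL4-si they were -0.32 and -0.30. In these comparisons the medians of both sets of starts, as annotated, were close. Within a few bases of the annotated start, 50 of the 62 genes had such a stretch, against 21.05% of all promoters. The genes with another start therefore include some with a stretch nearby, and whether a 5′ TOP divides the block was not tested. Other protein-coding genes with a C and 4 pyrimidines at the annotated start, 502 in the FADU table, had medians of -0.05 in FADU METTL4-si, -0.01 in BFTC909 METTL4-si and 0.06 in RP11-390F4.3-OE. Other protein-coding genes with a canonical transcript under 1000 bases, near the 827 bases that are the median of the block, had medians of -0.10, -0.04 and 0.16 in the same comparisons and of -0.17 in hypoxia of both lines. Across the 72 genes without large exon overlap, those at a higher level per kilobase had lower log2 fold changes in FADU METTL4-si (Spearman -0.576, Pearson -0.570), and less so in BFTC909 (-0.282 and -0.239). The level is the mean over the 6 libraries of a table and so contains those compared. The number of named pseudogenes had Spearman correlations of -0.333 and -0.308 with the same fold changes. These are descriptions across genes of the same libraries.

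Ribosome proteins whose genes have other names were also lower under METTL4-si in FADU. FAU, which encodes a small-subunit protein fused to a ubiquitin-like protein, and RACK1, a scaffold on the small subunit, both fell there (log2 fold changes -0.46 and -0.60, adjusted p = 0.0705 and 0.0079). In BFTC909 METTL4-si they had log2 fold changes of -0.19 and -0.17 and did not pass. Both were higher in RP11-390F4.3-OE, by log2 fold changes of 0.36 and 0.38 with adjusted p-values under 0.05, but did not reach the fold threshold. Of the 8 paralogs, RPL3L and RPL10L were not tested for low values. RPL22L1, the paralog of RPL22, followed the block in some comparisons only. In METTL4-OE cells it was higher, as the block was, at 65.5 and 66.0 against 55.4 and 51.1 in control vector cells. In RP11-390F4.3-OE cells it was lower, at 44.1 and 47.5. It fell in hypoxia, from 57.5 and 66.4 to 41.4 and 42.6 in FADU and from 46.2 and 46.1 to 24.1 and 23.8 in BFTC909 (1.89-fold lower, adjusted p = 0.000139), and had log2 fold changes of -0.01 and 0.02 with METTL4-si. RPL7L1, whose product works in ribosome assembly, fell in BFTC909 hypoxia by a log2 value of 0.83 and with METTL4-si in both lines (-0.45 and -0.44). RPL36AL fell in FADU METTL4-si (-0.53) and in BFTC909 hypoxia (-0.55), and RPL26L1 in BFTC909 hypoxia (-0.77) and METTL4-si (-0.51). RPL39L and RPS27L rose in RP11-390F4.3-OE, by 1.46-fold and 1.31-fold.

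Genes for ribosome assembly factors, which process ribosomal RNA and build the subunits in the nucleolus and are not part of the mature ribosome, are set beside the proteins themselves. Of 54 such genes, 26 fell in FADU hypoxia (median log2 fold change -0.37) and 51 in BFTC909 hypoxia (median -0.81), with 0 higher in either line, where 12.5% and 19.2% of all genes and 8 and 15 ribosomal protein genes had fallen. Under METTL4-si 8 assembly factors fell and 4 rose in FADU (median 0.00) and 7 fell in BFTC909 (median -0.11), beside the 65 and 20 ribosomal protein genes. These decreases are near the 16.8% and 12.9% of all genes that fell, and nothing is read from these counts. By adjusted p with no fold threshold, 12 assembly factors were lower and 8 higher in FADU METTL4-si, against 19.5% of all genes lower. By the same measure 18 were lower and 1 higher in BFTC909 METTL4-si, against 16.6% of all genes lower. In METTL4-OE 10 assembly factors rose and 0 fell (median 0.27, beside 0.24 for the ribosomal protein genes), against 8.3% of all genes that rose. In RP11-390F4.3-OE 2 rose and 15 fell (median -0.23), against 12.8% of all genes that fell, where 36 ribosomal protein genes rose. In the direct comparison 35 assembly factors were lower than in METTL4-OE and 0 higher (median -0.46), against 13.6% of all genes lower. NOL6 was lowest in FADU hypoxia (-1.26) and RRS1 in BFTC909 hypoxia (-1.55) and RP11-390F4.3-OE (-0.79). In the mutant clones 42 of the 54 were above the control in both clones, with median log2 ratios of 0.37 and 0.35, as were 6222 of all 15719 genes. The difference between the 2 sets of genes was not tested, since genes are not replicates.

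**Figure D5:**
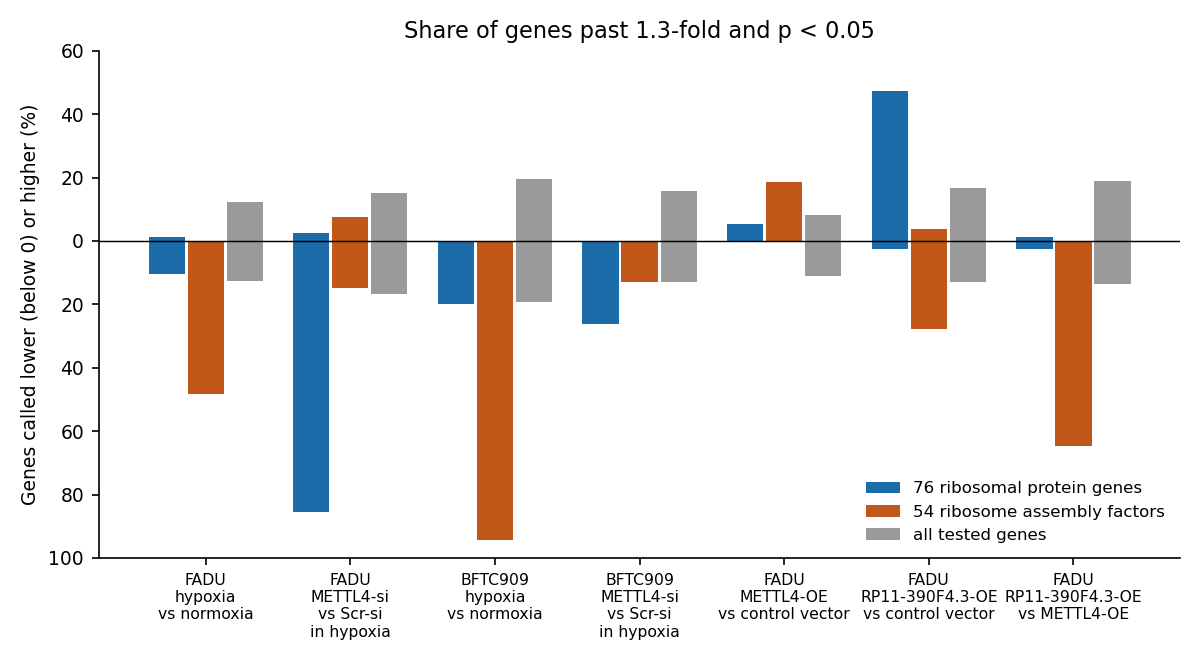
Percentage of genes that passed 1.3-fold with an unadjusted p under 0.05 (vertical axis; higher above 0, lower below 0) among the 76 ribosomal protein genes, 54 ribosome assembly factors and all tested genes, in the 7 tested comparisons (horizontal axis). In hypoxia 26 of the 54 assembly factors fell in FADU and 51 in BFTC909, against 12.5% and 19.2% of all tested genes. In FADU METTL4-si 65 of the 76 ribosomal protein genes fell, against 16.8% of all tested genes.

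The remaining genes of translation and its control were counted by list. Over all tested genes, the shares that fell were 12.5% in FADU hypoxia, 19.2% in BFTC909 hypoxia, 16.8% in FADU METTL4-si and 12.9% in BFTC909 METTL4-si, and no list was tested against these shares. RNA polymerase I and its factors (15 genes) had 6 and 9 lower in hypoxia of FADU and BFTC909, 2 lower and 2 higher in FADU METTL4-si, and 9 lower in RP11-390F4.3-OE against METTL4-OE (13.6% of all genes). POLR1G was lowest in both hypoxia comparisons (-0.91 and -1.64). Genes listed as translation elongation factors (6 tested), with EEF1E1 among them by name only, had 2 lower in FADU METTL4-si. Their median log2 fold change was -0.31, beside -0.67 for the ribosomal protein genes. EEF1A1 had a log2 fold change of -1.003 there (adjusted p = 0.00125, limma), and EEF1E1 one of 0.27. In BFTC909 METTL4-si 3 of them were lower (median -0.35), with EEF1B2 at -0.71. In RP11-390F4.3-OE 3 of the 6 were higher (16.8% of all genes), with EIF5A at 0.47. A list of initiation factors, binding factors and other genes taken as TOP mRNAs also held TPT1, NAP1L1 and VIM. The starts of this list were not counted here. Of its genes, 18 were tested in the FADU knockdown table and 19 in the other tested tables. It had 8 lower and 0 higher in FADU METTL4-si, with TPT1 lowest at -1.10, and 5 lower and 0 higher in BFTC909 METTL4-si. Of 15 other initiation factors, 7 were lower and 1 higher in FADU METTL4-si and 5 lower in BFTC909. Among 19 regulators of mTORC1 and of TOP mRNAs, 5 were lower and 0 higher in each METTL4-si comparison, and DDIT4, an inhibitor of mTORC1 that hypoxia induces, was the highest in hypoxia (1.85 in FADU and 1.76 in BFTC909) and the lowest with METTL4-si (-2.29 and -0.76). It was also the highest in METTL4-OE (1.20) and RP11-390F4.3-OE (2.28). Of 8 tested genes of the MYC network, 3 fell and 0 rose in FADU METTL4-si, and 1 fell and 0 rose in BFTC909 METTL4-si. MXI1 was the lowest in both (-1.53 and -0.84). In hypoxia 2 rose and 0 fell in FADU, and 4 rose and 2 fell in BFTC909 (median log2 fold change 0.54). Over all genes 12.4% and 19.5% rose there. MXI1 was the highest in hypoxia of both lines (1.70 and 1.34), and MYC the lowest in BFTC909 hypoxia (-0.90). In RP11-390F4.3-OE 4 rose and 0 fell (16.8% of all genes rose), with MXI1 highest at 1.96.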

How the data were processed

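RNA was measured in 21 libraries made with a stranded kit after ribosomal RNA depletion, with paired-end reads from a NextSeq machine. The authors used Trim Galore for trimming, HISAT2 for alignment against hg19, htseq-count for counts per gene and edgeR for normalization, and versions and counting settings were not given in the sources used here. The authors deposited a signal per gene and library, namely CPM after TMM normalization. In the 3 tables that were tested, 100% of the values were whole multiples of 1 read, within 0.1 of a read. The authors' tables of log2 fold changes, mean log2 expression, F statistics and p-values were not used.

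Gene identifiers were matched to GENCODE v44 lifted to GRCh37. In the tables of 19505, 17232, 18316 and 15719 genes, 18887, 16721, 17763 and 15308 matched. Genes that reached a value of 1 in 2 or more libraries were fitted with limma 3.58.1 (R 4.3.3, trend option) on log2(value + 1), where a fold change is smaller than on the raw scale for low genes, with the 3 groups of a table sharing the spread. As in the study, a gene counts as changed at 1.3-fold and an unadjusted p below 0.05. Benjamini-Hochberg adjusted p-values cover all tested genes. The limma fits were tested on simulated data with known changes and the same spread in all groups. The real groups differed in spread, which was widest in FADU METTL4-si, so this check does not bear on their p-values. The mutant table, in which reads on no gene were part of the authors' scaling, was compared without a test. Nothing states that the 2 libraries of a group come from separate cultures, so p-values measure the spread between these libraries, and no exact test on 2 against 2 libraries can pass 0.05. Libraries of a group differed by more than counting noise.

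Ribosomal protein genes and the other lists were chosen with earlier results of these data known. Genes were named as the 3 highest and 3 lowest of a comparison, by fixed roles (stalk, MDM2 binding, RPS6, RPS3, RPSA, RPS19, RPS27A, RPL10, RPL38, RPL22, RPS4X), and as ribosome parts and paralogs outside the rule, and for other lists the highest and lowest member. Other genes named were chosen after their values were seen. Alternatives were pseudocounts of 0.1 and 5, other filters and scalings, fits to the compared groups, edgeR 4.0.16 on whole reads, a block for replicate number, adjusted p-values and each library left out, and after seeing the data, leaving out libraries with markers of other cell types and genes with shared exons. Python 3.11.15 with pandas, numpy and matplotlib was used for the summaries. Single values of some genes are not reported here.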

Additional observations from a re-analysis of the deposited data

Results flagged for a closer look

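Some ribosomal protein genes had hypoxia libraries that lay all on one side of normoxia in FADU and all on the other side in BFTC909, and the difference between the lines was not tested. In each gene named here both FADU hypoxia libraries were above both normoxia libraries and both BFTC909 hypoxia libraries were below. In FADU 11 of the 76 genes lay above in this way, against 5464 of all 16324 tested genes. In BFTC909 74 of the 76 genes lay below (43.2% of all genes), so nearly any gene above in FADU would be below in BFTC909. RPSA had log2 fold changes of 0.38 in FADU and -0.30 in BFTC909, with adjusted p-values of 0.0148 and 0.0161 by limma. It was the only gene named here with an adjusted p under 0.05 in both lines. As given above, RPSA no longer passed in FADU without normoxia replicate 1 or without hypoxia replicate 2. RPL21 had 0.21 and -0.39, RPL39 0.19 and -0.27, RPS3A 0.17 and -0.31, RPS12 0.16 and -0.33, RPL15 0.15 and -0.26, RPS24 0.14 and -0.34, RPL6 0.06 and -0.41, RPL27 0.06 and -0.47, and RPL32 0.04 and -0.32. None of these genes other than RPSA rose past the threshold in FADU, and RPL21, RPL6 and RPL27 fell past it in BFTC909. Apart from RPSA, the FADU adjusted p-values by limma of the genes named here ran from 0.111 for RPL21 to 0.849 for RPL32.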

How the results depend on the processing

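Counts of ribosomal protein genes past the threshold stayed within 1.5 times under both pseudocounts, both filters, the fit to the compared groups, edgeR on whole reads and the adjusted p with the fold threshold. Adjusted p-values without a fold threshold gave 56 in BFTC909 hypoxia, 47 in BFTC909 METTL4-si, 69 in METTL4-OE, 71 in RP11-390F4.3-OE and 40 in the direct comparison of both overexpressions, where more genes were then higher (32) than lower (8), the opposite of the reported count. Median-centred libraries gave 7 in BFTC909 hypoxia, 40 in BFTC909 METTL4-si, 17 in RP11-390F4.3-OE and 5 in the direct comparison, and libraries scaled to an equal sum gave 11 in BFTC909 METTL4-si, 2 in METTL4-OE, 18 in RP11-390F4.3-OE and 5 in the direct comparison. That scaling moved the median of all genes to 0.10 in FADU METTL4-si. Without the 4 genes with shared exons FADU hypoxia gave 5. The cause of these shifts was not tested. Leaving out one library gave from 7 to 10 in FADU hypoxia, 50 to 72 in FADU METTL4-si, 13 to 25 in BFTC909 hypoxia (25 without Scr-si hypoxia replicate 2), 17 to 25 in BFTC909 METTL4-si, 3 to 8 in METTL4-OE (8 without METTL4-OE replicate 2), 28 to 44 in RP11-390F4.3-OE and 3 to 7 in the direct comparison (7 without RP11-390F4.3-OE replicate 1, and 5 without either METTL4-OE library). The median log2 ratio in the mutant clones, -0.20, was -0.08 with libraries scaled to an equal sum and -0.18 with median-centred libraries. Of 1340 alternatives for single genes named and called, 1259 kept the call, 81 lost it and 0 changed sign. Libraries with the same replicate number were not treated as pairs, because the differences between replicates correlated by -0.0652 to 0.154 between groups except for 0.648 between FADU normoxia and METTL4-si, and a replicate block gave 10 genes in FADU hypoxia, 68 in FADU METTL4-si, 15 in BFTC909 hypoxia, 20 in BFTC909 METTL4-si, 4 in METTL4-OE, 38 in RP11-390F4.3-OE and 3 in the direct comparison, and moved no count by over 1.5 times. Every ribosomal protein gene had at least 42 reads in every library, and whether depth, the 2 libraries per group or the fold threshold limits the calls most was not compared.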
